A study of Rattus norvegicus with 8 samples.

Results

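The T cell genes described here are the 9 genes Cd3e, Cd3d, Cd3g, Cd2, Cd4, Cd5, Cd8a, Lck and Zap70, out of 14497 genes with a probe set of their own on the array. They were chosen by name, and each was represented by a single probe set whose annotation gave only that gene. Expression was measured in the injured, ipsilateral L5 dorsal root ganglion (DRG) of adult male Wistar rats on day 14 after transection of the L5 spinal nerve. In the HDACI group (n = 4), the class I histone deacetylase inhibitor MS-275 was infused intrathecally at 30 nmol per day from an osmotic pump placed before the injury. In the vehicle group (n = 4), rats carried the same kind of pump filled with the solvent, dimethyl sulfoxide in saline. All rats of both groups had the nerve injury, so the arrays hold no uninjured control. Affymetrix Rat Gene 1.0 ST arrays were used, 1 per rat, and values are log2 signals after robust multi-array averaging (RMA). Array medians lay between 8.13 and 8.16.

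T cells recognize antigen through the T cell receptor, whose surface expression and signalling depend on the CD3 chains. On engagement, the kinase Lck, carried by the coreceptors CD4 and CD8, phosphorylates the CD3 chains, and these then recruit the kinase Zap70. T cells enter the DRG after injury of a peripheral nerve and lie among the neurons and macrophages there. In the rat, CD4 is also made by monocytes and macrophages, and CD8 alpha by natural killer cells and some activated macrophages, so neither is exclusive to T cells.

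In this tissue none of the 9 genes differed detectably between rats given the HDACI and rats given vehicle. By limma, 0 of the 9 had an adjusted p under 0.05, against 0% of all 28826 probe sets, and 0 had an unadjusted p under 0.05, against 3.55% of all probe sets. With 9 genes, a count of 0 is near that share and by itself says little. The smallest unadjusted limma p of the 9 was 0.154, for Cd4, and the adjusted p was 1.0 for each of them. Mean values were higher in HDACI for 7 of the 9 genes and lower for 2, and over all probe sets 53.33% were higher in HDACI. The median difference of the 9 was 0.03 (log2), beside 0.0055 over all probe sets. For all 9 genes the group ranges overlapped, and the difference was smaller than the SD between rats of a group. Among 78 other T cell genes measured, the ranges did not overlap for 2. The share over all probe sets was not counted, so this count cannot be read as a result. Without HDACI replicate 1, Cd4 alone passed an unadjusted p of 0.05 by limma, with an adjusted p of 1.0.

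The precision of the comparison was moderate. With all arrays and no covariate, for all 9 genes the 95% confidence interval of the difference lay within 1.5-fold in either direction. The widest was that of Cd8a, from 0.737-fold to 1.47-fold, and the narrowest was that of Zap70, from 0.897-fold to 1.08-fold. These intervals are per gene, and RMA values understate the changes of dim probe sets. A ganglion is a mixture of cells, so fewer T cells and less RNA per T cell cannot be told apart. The paper reported no clear change in histone acetylation with the drug in L5 DRG, globally or at the promoters it tested. On its DRG arrays it also found no gene changed after correction for multiple testing. Whether the drug acted in this tissue was not tested here.

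**Figure D1:**
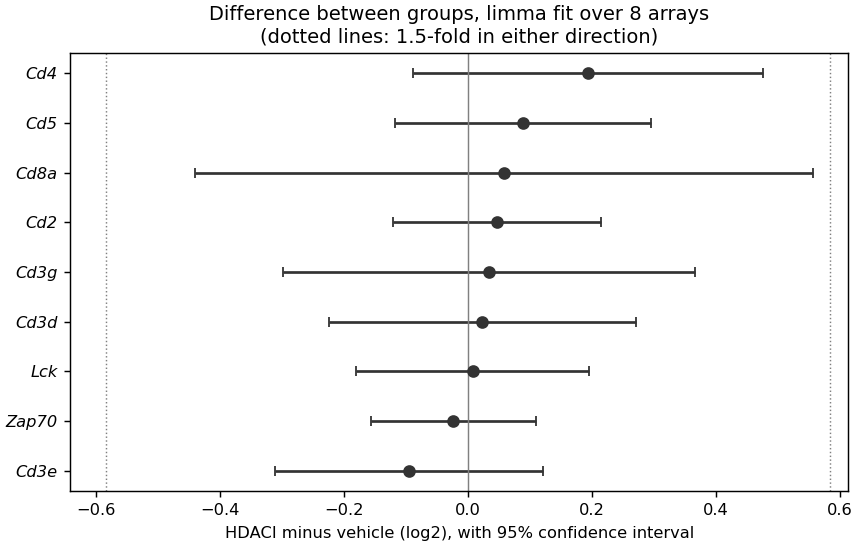
Points give the difference between group means of each T cell gene (HDACI minus vehicle, log2, n = 4 each) and bars its 95% confidence interval from limma. Every interval includes 0, and all 9 lie between the dotted lines at 1.5-fold in either direction.

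The brightness of each probe set among all probe sets is given as a description. Of the 8 sensory neuron genes measured, Tubb3, Uchl1, Nefl, Snap25 and Prph lay between percentiles 99.2 and 99.7 of all probe sets, and Rbfox3, Avil and Isl1 at 74.5, 74.3 and 68.1. Those of Cd3d, Cd3g and Cd3e lay at percentiles 23.7, 39.3 and 42.6, and those of Cd2, Lck, Cd5, Zap70 and Cd8a between 30.9 and 49.8. Cd4 lay at percentile 94.9. Such percentiles also depend on how well the probes of a gene bind, and no detection calls were used here, so how much of the dim values is background was not tested. Of the 9 genes, 8 passed a filter at the 30th percentile, and Cd3d did not.

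Of the CD3 chains, Cd3g had a Pearson r across the 8 rats of 0.15 with Cd3e (exact permutation p = 0.713) and 0.02 with Cd3d (exact permutation p = 0.96). That of Cd3e with Cd3d was 0.54 (exact permutation p = 0.189). Whether these r differ from each other was not tested. Cd3e, whose protein forms a dimer with each of the other two chains, measured 7.45, 7.58, 7.83 and 7.74 in HDACI replicates 1 to 4 and 7.94, 7.68, 7.71 and 7.64 in vehicle replicates 1 to 4 (log2). Its HDACI mean was 7.65 ± 0.17 and its vehicle mean 7.74 ± 0.13 (SD, n = 4), a difference of -0.09 ± 0.10 (SE). Vehicle replicate 1 was highest and HDACI replicate 1 lowest, and the other arrays of the groups were interspersed. With each array left out, the difference ranged from -0.16, without HDACI replicate 3, to -0.03, without HDACI replicate 1 or vehicle replicate 1.

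Cd3d, the delta chain, measured 6.43, 6.46, 6.90 and 6.37 in HDACI and 6.59, 6.46, 6.50 and 6.51 in vehicle. HDACI replicate 3 stood above all other arrays, which lay between 6.37 and 6.59, and the difference between groups was 0.02 ± 0.11 (SE). Without that array the difference was -0.10. Cd3g, the gamma chain, measured 7.56, 7.77, 7.42 and 7.33 in HDACI and 7.88, 7.52, 7.28 and 7.27 in vehicle. Here vehicle replicate 1 and HDACI replicate 2 were highest, while HDACI replicate 3, the top array for Cd3d, lay below the mean. The difference was 0.03 ± 0.15 (SE), and it was negative when HDACI replicate 2 (-0.05), vehicle replicate 3 (-0.04) or vehicle replicate 4 (-0.04) was left out.

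The 3 CD3 genes lie side by side on rat chromosome 8, and Lck, the kinase whose values followed Cd3e most closely, lies on chromosome 5. The 250 bases before the annotated transcript start are shown for these 4 genes, with 2 starts for Lck. They set the 3 neighbours beside the distant gene with the highest r with Cd3e, though no pair passed adjustment. Sequences are from RefSeq (build GRCr8), 5′ to 3′ on the strand of the gene. Capitals mark matches, on either strand, to the letters AGGAAG of ETS factors, TGTGGT of RUNX factors, AGATAA of GATA factors or CTTTGA of TCF and LEF factors, families of transcription factors known in T cells.

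Cd3g (chr8:54183919-54184168, minus strand): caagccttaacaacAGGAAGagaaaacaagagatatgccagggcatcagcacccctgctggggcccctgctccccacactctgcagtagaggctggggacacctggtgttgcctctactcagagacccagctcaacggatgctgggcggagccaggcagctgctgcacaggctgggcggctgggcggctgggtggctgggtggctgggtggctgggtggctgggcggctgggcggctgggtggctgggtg
Cd3d (chr8:54185269-54185518, plus strand): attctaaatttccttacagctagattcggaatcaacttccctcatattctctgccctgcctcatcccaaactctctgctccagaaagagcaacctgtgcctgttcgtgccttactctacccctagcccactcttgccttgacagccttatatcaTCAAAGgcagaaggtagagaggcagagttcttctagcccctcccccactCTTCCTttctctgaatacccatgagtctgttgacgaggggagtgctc
Cd3e (chr8:54211771-54212020, minus strand): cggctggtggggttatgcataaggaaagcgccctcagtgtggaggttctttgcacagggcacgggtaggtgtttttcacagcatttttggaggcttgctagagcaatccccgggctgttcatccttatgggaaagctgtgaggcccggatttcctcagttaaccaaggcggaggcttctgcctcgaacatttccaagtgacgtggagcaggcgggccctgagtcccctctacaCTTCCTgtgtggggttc
Lck, upstream start (chr5:147201268-147201517, minus strand): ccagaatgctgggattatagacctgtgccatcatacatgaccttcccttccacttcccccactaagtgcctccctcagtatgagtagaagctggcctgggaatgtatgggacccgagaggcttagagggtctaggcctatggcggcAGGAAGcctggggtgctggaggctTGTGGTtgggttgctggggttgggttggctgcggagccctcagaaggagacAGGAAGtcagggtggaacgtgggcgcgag
Lck, downstream start (chr5:147183651-147183900, minus strand): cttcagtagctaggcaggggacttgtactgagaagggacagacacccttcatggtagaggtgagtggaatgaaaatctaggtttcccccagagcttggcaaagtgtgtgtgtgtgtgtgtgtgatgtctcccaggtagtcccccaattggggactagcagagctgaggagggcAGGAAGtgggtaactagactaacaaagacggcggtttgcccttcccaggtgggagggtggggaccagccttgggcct

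A window was found for 8 of the 9 genes, 9 windows in all, with Cd4 the gene without an entry. The ETS letters were in 7 of the 9 windows, and in 29.5% of the 33469 promoter windows of the same length. They were in all 5 windows shown, in those of Cd5 and Zap70 as well, and not in those of Cd2 and Cd8a. RUNX letters were in 2 of the 9 (14.5% of all windows), at Cd2 and at the upstream start of Lck. TCF/LEF letters were in 2 (13.9%), at Cd3d and Zap70, and GATA letters were in 0 (10.3%). A match describes the letters only, and binding was not measured.

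Lck and Zap70, the kinases of the receptor, differed in how much they varied. Lck measured 7.56, 7.72, 7.88 and 7.76 in HDACI and 7.88, 7.62, 7.74 and 7.64 in vehicle (log2). The arrays highest and lowest in Lck were those highest and lowest in Cd3e, vehicle replicate 1 and HDACI replicate 1, and the group means differed by 0.01 ± 0.08 (SE). Zap70 measured 7.84, 7.89, 7.96 and 7.88 in HDACI and 7.87, 7.85, 7.88 and 8.06 in vehicle. It was the steadiest of the 9, with all arrays within 0.23, and the difference was -0.02 ± 0.06 (SE).

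Cd8a, Cd3g and Cd4 had the largest within-group SDs of the 9, at percentiles 98.0, 93.2 and 89.4 of all probe sets. Cd4 measured 11.31, 11.37, 11.80 and 11.78 in HDACI and 11.56, 11.32, 11.32 and 11.29 in vehicle (log2). The arrays formed a high set, HDACI replicates 3 and 4 with vehicle replicate 1 below them, and a tight low set of the other 5 between 11.29 and 11.37. The difference, 0.19 ± 0.12 (SE), was the largest of the 9, and with each array left out it ranged from 0.12, without HDACI replicate 3 or 4, to 0.28, without HDACI replicate 1.

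The same 3 arrays were the only ones above their mean for macrophage genes. The mean of 14 measured macrophage genes of 15 listed, each centred on its mean over all arrays, was 0.43 in HDACI replicate 4, 0.08 in HDACI replicate 3 and 0.11 in vehicle replicate 1, and between -0.16 and -0.06 in the other 5. That list ranged from -0.16 to 0.43 in HDACI and from -0.13 to 0.11 in vehicle. The lowest means as well as the highest were in HDACI, at -0.16 in replicate 1 and -0.15 in replicate 2. Of the 14 genes, 13 were higher in HDACI, beside 53.33% of all probe sets. Most of the 14 were highest in HDACI replicate 4, so their shared direction is not a set of separate results. An unadjusted limma p under 0.05 was reached by 0 of the 14, beside 3.55% of all probe sets. The part of macrophages in the Cd4 values was not tested.

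Cd8a, the alpha chain of CD8, was the most variable of the 9 by SD and by range. It measured 7.83, 7.88, 8.19 and 8.73 in HDACI and 8.46, 7.70, 7.98 and 8.26 in vehicle, a range of 1.03 on the log2 scale. HDACI replicate 4 and vehicle replicate 1 were highest and vehicle replicate 2 lowest, so high and low arrays occurred in each group. The SD within groups was 0.37, at percentile 98.0 of all probe sets, and the difference was 0.06 ± 0.22 (SE). It was -0.13 without HDACI replicate 4 and -0.07 without vehicle replicate 2.

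Cd8b, which encodes the other chain of the CD8 coreceptor, gave the same order of the 8 arrays. It measured 7.59, 7.61, 8.02 and 8.78 in HDACI and 8.23, 7.59, 7.63 and 8.12 in vehicle, with a difference of 0.11 ± 0.27 (SE). Over the 8 arrays, Cd8a and Cd8b had a Pearson r of 0.97 (exact permutation p = 2.5e-05) and a Spearman rho of 1.0 (exact permutation p = 5e-05), the smallest p these tests can give. Without the 2 arrays farthest from the median of Cd8b, r was 0.93. This pair was set side by side after its values had been seen, so the p is no independent test.

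**Figure D2:**
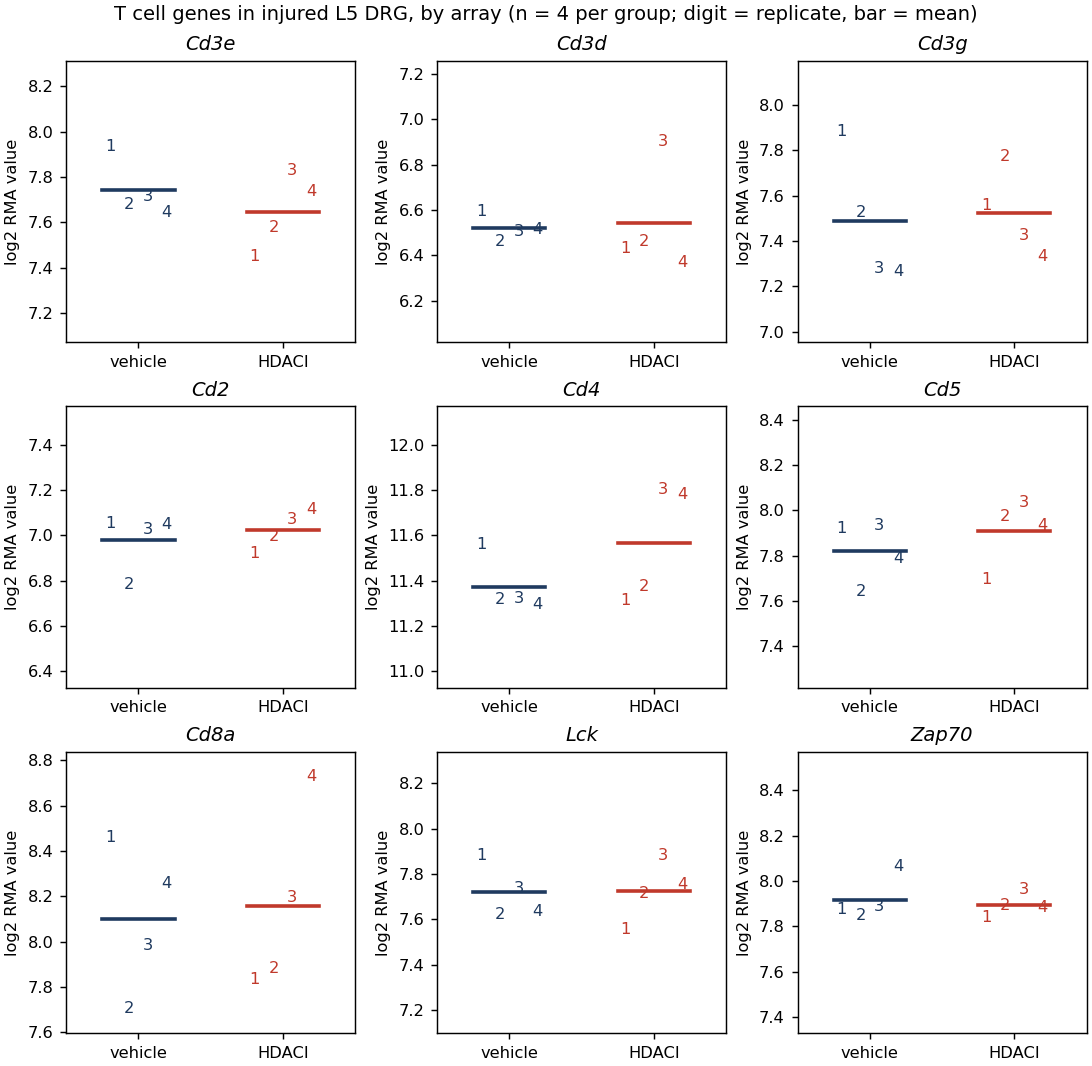
Log2 RMA values of the 9 T cell genes are shown per array, with digits for the replicate number, vehicle in dark blue and HDACI in red, and bars for the means of n = 4. The groups overlap in every panel, and Cd8a spans 1.03 between its lowest and highest array.

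Cd2 and Cd5, surface molecules of T cells that adhere to other cells and restrain receptor signalling respectively, had within-group SDs at percentiles 56.2 and 74.4 of all probe sets. Cd2 measured 6.92, 7.0, 7.07 and 7.11 in HDACI and 7.05, 6.78, 7.02 and 7.05 in vehicle (log2). All arrays lay within 0.33, vehicle replicate 2 was lowest, and the difference of 0.05 ± 0.07 (SE) was -0.02 without that array. Cd5 measured 7.69, 7.97, 8.04 and 7.93 in HDACI and 7.92, 7.64, 7.93 and 7.79 in vehicle, a difference of 0.09 ± 0.09 (SE). The lowest array of each group, HDACI replicate 1 and vehicle replicate 2, lay below all other arrays. Without the former the difference was 0.16, without HDACI replicate 3 it was 0.05, and without vehicle replicate 2 it was 0.03.

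Across the 9 genes, the same few rats tended to be high or low, and these were spread over both groups. HDACI replicate 3 and vehicle replicate 1 were above the mean for 8 of the 9 genes, while HDACI replicate 1 and vehicle replicate 2 were above it for 1. HDACI replicate 1 was among the lowest 2 arrays for 8 genes. The mean of the 9, each centred on its own mean, was -0.14, -0.02, 0.14 and 0.09 in HDACI replicates 1 to 4 and 0.15, -0.14, -0.05 and -0.03 in vehicle replicates 1 to 4 (log2). Each group thus held arrays near the highest and the lowest value.

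**Figure D3:**
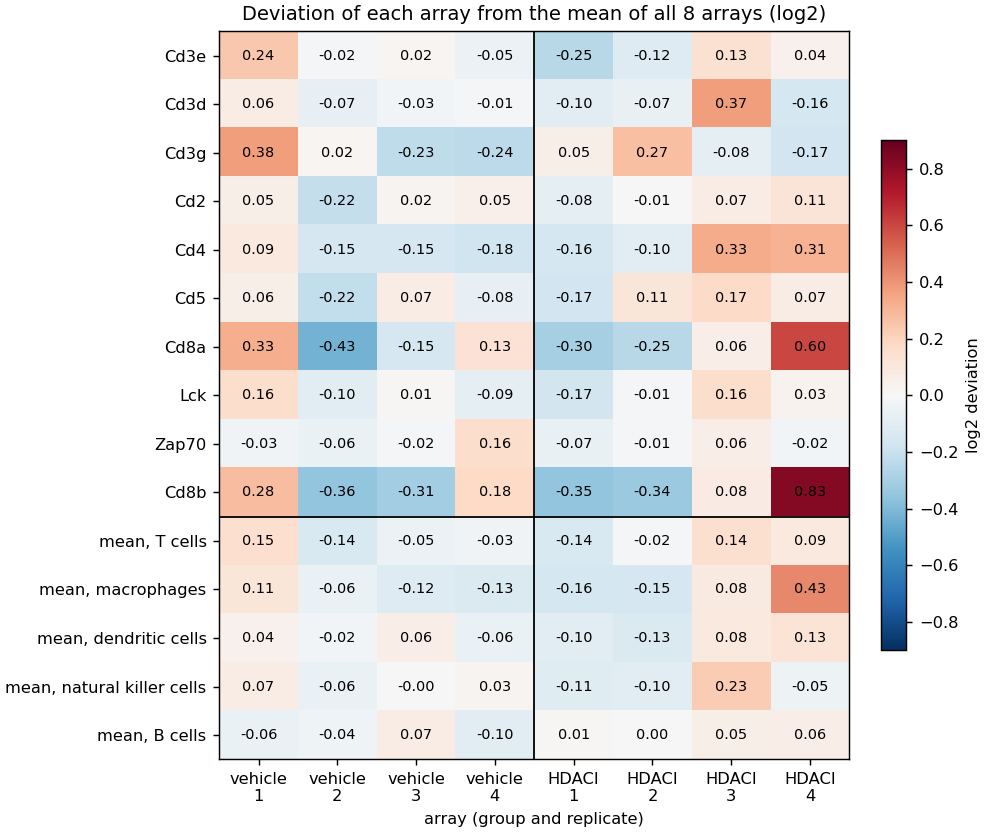
Each cell gives the deviation of an array from the mean of all 8 arrays (log2), for the 9 T cell genes, Cd8b and the means of 5 marker lists, with vehicle arrays on the left and HDACI arrays on the right. High and low arrays occur in each group: vehicle replicate 1 and HDACI replicate 3 lie above the mean for 8 of the 9 genes.

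Most pairs of the 9 genes were positively correlated over the 8 rats, but no pair passed adjustment. Of 36 pairs, 32 had a Pearson r above 0, with a median r of 0.47. By the exact permutation test, 5 pairs had an unadjusted p under 0.05 and 0 passed Benjamini-Hochberg adjustment over the 36 pairs, by r or by rho. Cd3e and Lck were most alike, with r = 0.89 (exact permutation p = 0.00322, adjusted p = 0.116) and rho = 0.90 (exact permutation p = 0.00456, adjusted p = 0.0821). Without the 2 arrays farthest from the median of Cd3e, r was 0.74, and for deviations from the group means it was 0.96.

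Cd2 and Cd8a had r = 0.83 (exact permutation p = 0.0099, adjusted p = 0.139) and rho = 0.93 (exact permutation p = 0.00223, adjusted p = 0.0804), and r = 0.92 without the 2 farthest arrays. Cd2 and Cd5 had r = 0.80 (exact permutation p = 0.0155, adjusted p = 0.139) and rho = 0.64 (exact permutation p = 0.0962, adjusted p = 0.289), but r = -0.01 without the 2 farthest arrays, so this relation rests on those arrays. Lck had the highest median r with the other members, 0.64, followed by Cd4 with 0.61. The lowest median r was that of Cd3g, 0.0016, followed by Zap70 with 0.17. All values of an array share its RNA sample and normalization, which can make genes vary alike.

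**Figure D4:**
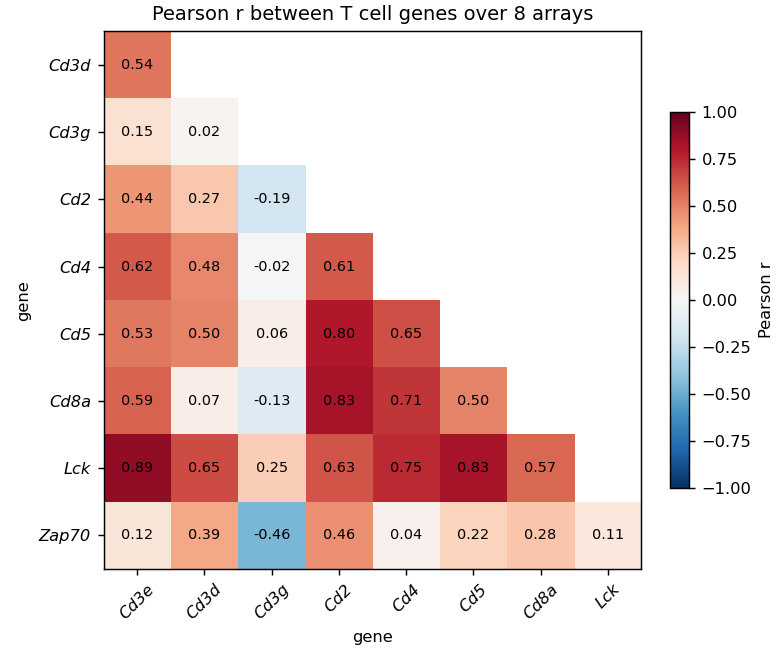
Each cell gives the Pearson r of a pair of T cell genes over the 8 arrays, from -1 in blue to 1 in red. Cd3e with Lck has the highest r (0.89), and those of Cd3g lie between -0.46 with Zap70 and 0.25 with Lck.

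The genes whose values over the 8 arrays followed the mean of the 9 T cell genes most closely were not on the T cell lists. Among 14488 other genes, the 6 with the highest Pearson r were Apoe, an apolipoprotein made by macrophages and glia (0.94), Zfp658 (0.94), Zfp422 (0.93), Apaf1, which activates caspases (0.93), Sh3tc1 (0.93) and Gm2a, a lysosomal activator protein (0.92). The 3 with the lowest were Dlgap4, a scaffold of synapses (-0.96), the olfactory receptor Or9s13 (-0.95) and Nsf, which drives vesicle fusion (-0.95). These are extremes picked from all genes over 8 arrays and are given as a description. The genes in the T cell mean were centred but not scaled, so those that varied more, such as Cd8a, weighed more.

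Other genes on lists for T cells had differences in both directions. Of 94 genes on 7 lists, 78 were measured, 47 of them higher and 31 lower in HDACI, with a median difference of 0.02 (log2). By limma, 2 had an unadjusted p under 0.05, both higher in HDACI, and 0 had an adjusted p under 0.05. These 2 of 78 stand beside the 3.55% of all probe sets. Brightness of the 78 ranged from percentile 5.3, for Trat1, to 93.6, for Fyn. How much other cells of the ganglion contributed to these values was not tested, so the counts are not a measure of T cells.

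Of the remaining chains and partners of the receptor, 5 of 6 genes were measured, and 3 were higher and 2 lower. Cd247, the zeta chain, measured 7.16 ± 0.08 in HDACI and 7.12 ± 0.13 in vehicle (SD, n = 4), and the smallest p of this list was that of Cd7 (0.09 ± 0.09, SE). Of costimulatory and inhibitory receptors 13 of 17 were measured, led by Havcr2, the inhibitory receptor TIM-3, which myeloid cells also carry (0.24 ± 0.12, SE). Its highest array, HDACI replicate 4 (7.47), was also the one highest in macrophage genes. Of proximal signalling genes 19 of 23 were measured, and the adaptor Grap2 had the smallest p (0.09 ± 0.05, SE), with groups that did not overlap.

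Tcf7, a transcription factor of naive and memory T cells, was one of the 2 genes past an unadjusted p of 0.05. It measured 8.74, 8.71, 8.65 and 8.86 in HDACI and 8.59, 8.61, 8.62 and 8.60 in vehicle (log2), so every HDACI array lay above every vehicle array. Tcf7 and Grap2 were the 2 of 78 measured list genes without overlap. The share over all probe sets was not counted, so the lack of overlap is given as a description only. Tcf7 did not pass with the replicate number as a block, with the muscle score, or without HDACI replicate 1 or 4 or vehicle replicate 1 or 4. The difference was 0.14 ± 0.05 (SE, limma adjusted p = 1.0). The other was Il4, the cytokine of type 2 helper T cells, with 6.35, 6.19, 6.30 and 6.16 in HDACI and 6.20, 5.98, 6.04 and 6.09 in vehicle, a difference of 0.17 ± 0.06 (SE, limma adjusted p = 1.0). Its probe set was dim, at percentile 18.9, and the groups overlapped. It did not pass without HDACI replicate 1 or 3 or vehicle replicate 2 or 3. Both are given as values, since neither passed adjustment. Transcription factors had 11 of 15 genes measured and T cell cytokines 11 of 11.

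Of cytokine receptors and homing molecules 10 of 12 were measured, with the integrin chain Itgal showing the smallest p (0.21 ± 0.11, SE). Of cytotoxic effectors 9 of 10 were measured, and the granzyme Gzma had the smallest p (0.13 ± 0.07, SE). Members of these lists past an adjusted p of 0.05 numbered 0.

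Markers of other cells that a ganglion sample can hold were measured on the same arrays. Unadjusted limma p-values under 0.05 were reached by 0 of 6 measured B cell genes, 0 of 8 natural killer cell genes and 0 of 6 dendritic cell genes. They were reached by 0 of 8 neutrophil genes and 0 of 6 mast cell genes as well, beside 3.55% of all probe sets. In lists this short, 0 is near that share and says little about these cells. The centred mean of B cell genes ranged from 0.0043 to 0.06 in HDACI and from -0.10 to 0.07 in vehicle, and that of natural killer cell genes from -0.11 to 0.23 and from -0.06 to 0.07. For natural killer cells HDACI replicate 3 was highest, as it was for the mean of T cell genes within its group. Differences of the genes with the smallest p were Cd22 (0.07 ± 0.04, SE) for B cells, Klrb1 (0.10 ± 0.06) for natural killer cells, Fcgr3a (-0.19 ± 0.11) for macrophages, where it was the only one of 14 genes lower in HDACI and the median difference was 0.10, and Csf3r (0.13 ± 0.07) for neutrophils.

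Skeletal muscle genes had more such p-values. Of 15 measured muscle genes, 15 were lower in HDACI, while 53.33% of all probe sets were higher. An unadjusted limma p under 0.05 was reached by 14, beside 3.55% of all probe sets, with 0 past adjustment. Most of these genes were highest in vehicle replicate 1 and varied together, so the 14 are not separate results. Their centred mean was 2.44, 1.69, -1.07 and 0.64 in vehicle replicates 1 to 4 against -1.26 to -0.79 in HDACI (log2). Vehicle replicates 1 and 2, the arrays highest in muscle genes, lay at opposite ends for T cell genes, with centred means of 0.15 and -0.14. Without these 2 arrays the median difference of the 9 genes was 0.04, and 0 of the 9 had an unadjusted limma p under 0.05. With the muscle score as a covariate it was 0.05. Cd3g moved most of the 9: its difference was 0.03 with all arrays, 0.25 without vehicle replicates 1 and 2 and 0.35 with the muscle score, and in none of these did it pass an unadjusted limma p of 0.05. Muscle genes were lower in HDACI, so muscle and treatment cannot be fully told apart here. The part of muscle in the Cd3g values was not tested.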

How the data were processed

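RNA from the injured L5 DRG of 8 rats, 4 given MS-275 and 4 given vehicle, was hybridized to Affymetrix Rat Gene 1.0 ST arrays. The labels gave each array its group and number. The authors deposited log2 values made by RMA in oligo, which corrects background, normalizes arrays by quantiles and summarizes the probes of a set. The sources used here do not state its version. It gives arrays nearly the same distribution, so a shift shared by all genes would not be seen.

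Of 28826 probe sets, 15209 had 1 gene symbol, 306 several and 13311 none, by a platform annotation of 2016. The brightest probe set was taken for genes with several. Differences (HDACI minus vehicle, two-sided) were fitted over all probe sets in R 4.3.3 by lmFit and eBayes of limma 3.58.1, with Benjamini-Hochberg adjustment. The fit was tested on simulated data. Correlations were tested with exact permutation over all 40320 pairings, two-sided.

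The 9 genes and all lists were chosen with earlier results of these data known. Named were the 9 genes, list genes with an unadjusted p under 0.05, the smallest p of each pathway list, up to 2 of each marker list and the 9 genes most like or unlike the T cell mean. Cd8b, Cd247, Klrk1, genes for brightness and those under each other setting were named outside this rule, after their values were seen. Alternatives were a replicate block, a dim filter, median centring, cyclic loess, an intensity trend, a muscle score, all probe sets of a gene and each array left out. The number of arrays limits the precision, and nothing says whether RNA was extracted in batches.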

Additional observations from a re-analysis of the deposited data

Results flagged for a closer look

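Of 24 groups of 4 arrays checked (the 9 T cell genes, their mean, Tcf7 and Il4 in each treatment), 2 had an array whose gap to its nearest neighbour was larger than the 95% critical value of Dixon's test, and chance gives about 1 in 20. Cd2 measured 6.78 in vehicle replicate 2, while the other vehicle arrays lay between 7.02 and 7.05. Cd4 measured 11.56 in vehicle replicate 1, while the other vehicle arrays lay between 11.29 and 11.32.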

How the results depend on the processing

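In each of 16 alternatives 0 of the 9 T cell genes passed an adjusted p of 0.05 by limma. At an unadjusted p of 0.05 the count was 0 of 9 except without HDACI replicate 1, where Cd4 passed, so that it ranged from 0 to 1 with each array left out. The median difference stayed between -0.02 and 0.07 and moved by less than the SD between replicates (0.10). Of the other T cell genes, 2 passed an unadjusted p of 0.05 with all arrays, and 1 to 4 with each array left out, but which genes passed changed. They were Havcr2 and Itgal without HDACI replicate 1, Gzmb and Tcf7 without HDACI replicate 3, Tcf7 and Tnfrsf4 without vehicle replicate 2, Nfatc2 and Tcf7 without vehicle replicate 3, and Il4 and Tbx21 without HDACI replicate 4 or vehicle replicate 4. With cyclic loess 3 passed (Il4, Tbx21 and Tcf7). The count was 1 with the replicate block, 1 with the muscle score, 1 without vehicle replicates 1 and 2 (an alternative chosen after seeing the data), Il4 in each of these, and 1 with the dim filter, Tcf7. The dim filter removes Il4 and Cd3d. Without vehicle replicate 1 the count was 1 (Il4), and without HDACI replicate 2 it was 4 (Havcr2, Il4, Lef1 and Tcf7). The replicate block changed no call of the 9 genes. Deviations of same-numbered arrays correlated between -0.28 and 0.014 and gave no sign of pairing. The replicate block, dim filter, intensity trend and use of all probe sets leave each gene's difference as it is by construction. Of 108 values under the other 12 alternatives, 15 changed sign. Lck was -0.0032 with cyclic loess, and Cd2 was -0.00093 with the muscle score and -0.013 without vehicle replicates 1 and 2. With each array left out, Cd3d ranged from -0.097 to 0.081, Cd3g from -0.049 to 0.17, Cd2 from -0.018 to 0.082, Cd8a from -0.13 to 0.18, Lck from -0.044 to 0.065, Zap70 from -0.047 to 0.024, Cd3e from -0.16 to -0.028, Cd5 from 0.029 to 0.16 and Cd4 from 0.12 to 0.28. Cd3g was 0.35 with the muscle score and 0.25 without vehicle replicates 1 and 2. The cause of these changes was not tested.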

Other observations

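Klrk1, the receptor NKG2D of natural killer and CD8 T cells, chosen after its values were seen, varied more between rats than any of the 9 T cell genes. It measured 8.08, 8.06, 9.71 and 8.33 in HDACI replicates 1 to 4 and 10.08, 8.01, 9.33 and 8.09 in vehicle replicates 1 to 4 (log2). HDACI replicate 3 and vehicle replicates 1 and 3 lay at 9.33 or above and the other 5 arrays at 8.33 or below, with high arrays in each group. Its SD within groups was at percentile 99.9 of all probe sets, and the difference between groups was -0.33 ± 0.52 (SE). Klrd1, which pairs with other receptors of the same family, differed by -0.04. The granzyme Gzmb, whose family has similar copies in the rat so that its value is uncertain, was at brightness percentile 86.9 and measured 10.48, 10.51, 10.67 and 10.09 in HDACI against 10.57, 10.67, 10.58 and 10.60 in vehicle, with HDACI replicate 4 lowest. The array lowest in Gzmb was the one highest in Cd8a and Cd8b.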
